A study of Mus musculus with 17 samples.

Results

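Macrophages sorted from 4T1 mammary tumours (TAM, 3 libraries) were compared with myeloid cells sorted from the leg bone marrow of tumour-bearing mice (BMDM-T, 4 libraries), across every row of the raw count table that carries a gene symbol. These 7 libraries are 7 of the 17 in the series. Of 10207 symbols, 7518 had enough counts to be tested. Both groups came from BALB/c females whose mammary fat pad had been injected with 4T1-luc, a mouse mammary carcinoma line that carries luciferase, and both are labelled with an age of 8 weeks. Tumours were collected at about 1 cm and digested with collagenase A and DNase, and TAM were taken from CD45-enriched cells as CD11b+ Gr1- F4/80+. Marrow was flushed from tibia and femur, treated to lyse red cells, and BMDM-T were taken as CD11b+ Gr1+ F4/80low. No genotype change is named for either group. The groups therefore differ in tissue, in dissociation and in sorting gate as well as in cell state, and these cannot be told apart. The labels do not say that libraries of a group came from separate mice, so p-values here rest on library-to-library spread that may be technical.

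Tissue macrophages depend on signalling through the CSF1 receptor and on MAF-family and PU.1 transcription factors. Granulocytes in the marrow mature under C/EBP, GFI1 and CSF3 receptor control, and are held in or released from the marrow by chemokine receptors. In tumours, macrophages are known for clearing dead cells, for handling iron, lipid and arginine, and for secreting chemokines, growth factors and matrix proteases.

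Lineage markers and the sort marker gene Adgre1 differed between the groups, and granulocyte markers were far higher in the marrow cells than in TAM. Adgre1, which encodes F4/80, had 131, 152 and 184 CPM in TAM and 18.3, 10.1, 11.5 and 5.41 CPM in BMDM-T (log2 fold change 3.81 ± 0.26 (SE), adjusted p = 1.5e-10). Its 2 ranges were far apart. Itgam, which encodes CD11b, had 440.05, 415 and 447 CPM in TAM and 610.5, 524, 539 and 557 CPM in BMDM-T, and its difference did not pass the test (log2 fold change -0.36 ± 0.16 (SE), adjusted p = 0.056). The 15 measured neutrophil and granulocyte markers summed to 170964 to 207413 CPM in the BMDM-T libraries, against 379 to 609 CPM in TAM. Macrophage markers, 13 measured, summed to 63627 to 74744 CPM in TAM and 14216 to 16429 CPM in BMDM-T. Classical monocyte markers (8 measured) summed to 7340 to 9337 CPM in BMDM-T and 355 to 469 CPM in TAM. Of these sums 1 gene, haptoglobin, held 6059, 4740, 5077 and 5219 CPM in BMDM-T. By adjusted p, 2 of the 8 members were higher in TAM and 6 lower. In the cells labelled bone marrow-derived monocytes, granulocyte markers were thus far above their level in TAM. Many genes described below are also lower in TAM, the same direction as that list. What part granulocytes have in each difference was not tested. In sorted bulk samples, fewer cells of a type and less RNA per cell cannot be told apart.

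Marker lists of other cell types were summed in the same way. Epithelial and carcinoma markers (11 measured) summed to 101 to 137 CPM in TAM and 97.4 to 152 CPM in BMDM-T. Fibroblast markers (9 measured) came to 40.8 to 84.3 CPM in TAM and 12.6 to 28.0 CPM in BMDM-T, and endothelial markers (7 measured) to 114 to 145 CPM and 36.9 to 52.1 CPM. Dendritic cell markers (8 measured) came to 445 to 522 CPM in TAM and 207 to 249 CPM in BMDM-T. B-lineage markers (12 measured, 8 of them at 0 in TAM) came to 511 to 936 CPM in BMDM-T and 22.8 to 31.3 CPM in TAM. Markers of T and NK cells (4 measured) came to 250.5 to 308 CPM in BMDM-T and 8.89 to 18.6 CPM in TAM. Eosinophil, basophil and mast cell markers (10 measured, 6 of them at 0 in TAM) came to 403 to 480.3 CPM and 1.55 to 2.12 CPM. Red cell and platelet markers (13 measured) came to 404 to 899 CPM in TAM and 67.8 to 130.3 CPM in BMDM-T, but Pf4, which macrophages also make, held 883, 459.9 and 385 CPM of the TAM sums, and of 12 members tested 2 were higher and 5 lower (median log2 fold change -1.88). Dissociation and stress genes, all 18 measured, summed to 11411 to 12137 CPM in TAM and 4333 to 7377 CPM in BMDM-T, and of 17 tested 11 were higher and 2 lower.

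Depth differed by group, with 1748338 to 3747929 counts per TAM library and 931278 to 1218977 per BMDM-T library. The 20 most abundant genes took 19.3% to 20.3% of the counts in TAM and 24.9% to 27.4% in BMDM-T. Levels are given as CPM (counts relative to library size) scaled by TMM factors, which correct for a few very abundant genes. Because the libraries read the 3' end of each mRNA, levels are compared between groups and not between genes. Of the 7518 genes tested with edgeR's quasi-likelihood test, 4426 (58.9%) had an adjusted p under 0.05, 2266 (30.1%) higher in TAM and 2160 (28.7%) lower. Against a fold of 2 (edgeR's test of a minimum fold, called the 2-fold test here), 928 genes (12.3%) were higher and 971 (12.9%) lower. The libraries of the groups did not overlap for 4367 genes (58.1%). These shares are the background for every list below. The median log2 fold change over all tested genes was 0.03, and 0.18 when total counts alone set the scale, so changes are read relative to that median.

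**Figure D1:**
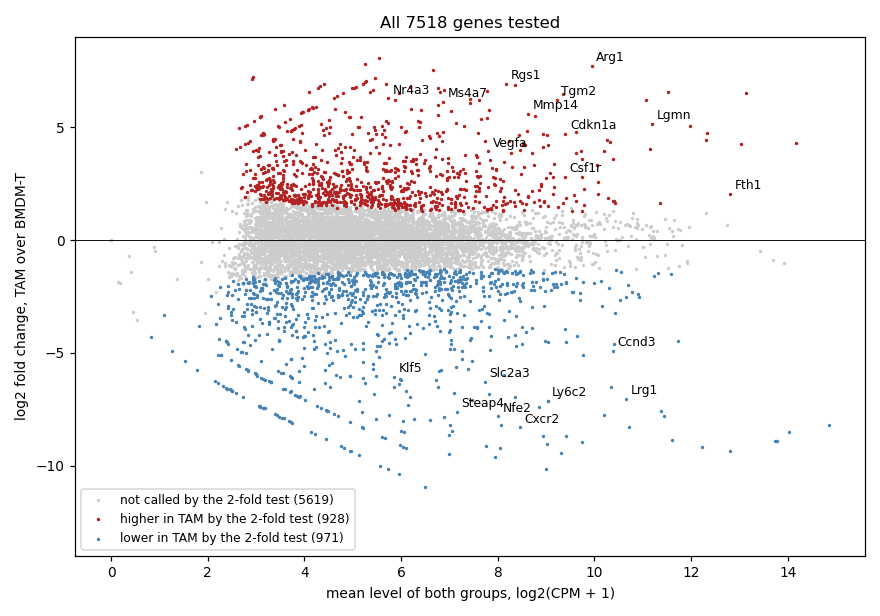
Each point is 1 of the 7518 genes tested: the x axis is the mean level of both groups as log2(CPM + 1), the y axis the log2 fold change of TAM over BMDM-T. The 928 genes higher (red) and 971 lower (blue) by the 2-fold test lie on both sides at all levels, and named genes are labelled.

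The largest rises outside granule, complement and MHC genes included enzymes, a G protein regulator and chemokines. Rgs1, which speeds the shut-off of G protein signals (chromosome 1, 144242296 to 144249242, minus strand, GRCm38), had 464, 618 and 638 CPM in TAM and 0, 12.6, 3.46 and 0.902 CPM in BMDM-T. It was 123-fold higher in TAM (log2 fold change 6.94 ± 0.41 (SE), adjusted p = 1.6e-11), and the log2 fold change was 8.60 without BMDM-T replicate 2, the highest of its group. Tgm2, the transglutaminase that cross-links proteins and marks alternatively activated macrophages, had 1012, 1207 and 1303 CPM in TAM and 7.54, 18.5, 21.9 and 14.4 CPM in BMDM-T (log2 fold change 6.22 ± 0.25 (SE), adjusted p = 6.2e-14). Tgm2 overlaps Rprd1b on the opposite strand, and the strand setting of the counting is not given in the sources used here. Tgm2 and Rgs1 were separate in all libraries, but the largest rises and falls were picked only from genes whose groups did not overlap. Ms4a7, a tetraspan protein of macrophages, was 70.1-fold higher (229 ± 42.9 CPM in TAM against 3.24 ± 1.66 CPM in BMDM-T, SD), and Tmem37, a calcium-channel gamma-like protein, was 64.5-fold higher with 212, 211 and 209.9 CPM in the TAM libraries. Grasp, a scaffold for receptor trafficking that overlaps A330009N23Rik on the opposite strand, was 56.4-fold higher. Zmynd15 and Cxcl16, also among the 12 largest rises, overlap each other on opposite strands, so their reads cannot be told apart here.

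The largest falls included a chemokine receptor, a transcription factor, enzymes and secreted proteins. Cxcr2, the receptor that draws neutrophils to CXC chemokines (chromosome 1, 74153989 to 74161246, plus strand, GRCm38), had 1.11, 3.71 and 1.81 CPM in TAM and 771, 705, 695 and 635 CPM in BMDM-T, 315-fold lower in TAM (log2 fold change -8.30 ± 0.28 (SE), adjusted p = 1.2e-14). Nfe2, a bZIP factor of erythroid, megakaryocyte and granulocyte cells, had 2.78, 3.71 and 1.03 CPM in TAM and 641, 431, 524 and 446 CPM in BMDM-T (log2 fold change -7.81 ± 0.32 (SE), adjusted p = 8.3e-14). As for the rises, only genes without overlap between the groups were eligible here. Steap4, a metalloreductase, was 197-fold lower, and Hdc, which makes histamine, was 142-fold lower (log2 fold change -7.15, and -7.99 without TAM replicate 1). Rasgrp2, which activates the integrin-switching GTPase RAP1, was 138-fold lower, with 3.33, 3.18 and 1.55 CPM in TAM. Among the others, the acute-phase proteins Lrg1 and Lbp were 130.3-fold and 109-fold lower, and the monocyte antigen gene Ly6c2 was 139-fold lower. Ly6c2 belongs to the Gr1 sort antigens, so the gates themselves select for this difference. Mgst2, Hip1r (overlapping Vps37b on the opposite strand) and St3gal5, the ganglioside GM3 synthase, were 91.7-fold, 84.2-fold and 73.2-fold lower.

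Some genes had no count at all in one group, and their folds are lower bounds set against 3 counts over that group. Prdm1, which encodes the repressor BLIMP-1, had 6.67, 15.4 and 19.6 CPM in TAM and 0 in all 4 BMDM-T libraries, at least 21.1-fold higher. Cxcl3, a neutrophil chemokine, and Ramp3, a partner of the adrenomedullin receptor, had 0 counts in BMDM-T and were at least 17.2-fold and 16.6-fold higher, with 33.3, 4.77 and 6.72 CPM and 27.2, 8.49 and 6.98 CPM in TAM. Their first TAM library stood above the other two. In the other direction, Mrgpra2b, a G protein-coupled receptor of granulocytes, had 62.4, 53.8, 84.3 and 70.4 CPM in BMDM-T and 0 in TAM, at least 168-fold lower. The exocytosis protein gene Sytl1 had 57.1, 47.9, 63.5 and 70.4 CPM and 0, at least 149-fold lower. Prg2, Prss34 and Vpreb3, markers of eosinophils, basophils and B cells, were also at 0 in TAM.

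Across 38 program lists, receptors and secreted factors carried a larger share of called members than signal transducers. The lists were chosen with earlier results of these data known, so these shares describe the listed members and not each class as a whole. Of 207 tested receptors and adhesion molecules, 81 were higher and 47 lower by the 2-fold test (39.1% and 22.7%, against 12.3% and 12.9% of all genes). Of 96 tested secreted factors, 52 were higher and 15 lower, and the median log2 fold change was 1.72. Of 274 tested signalling genes, 40 were higher and 47 lower (median -0.12), and 47 higher and 37 lower under total-count scaling (median 0.03). Transcription factors (156 tested) had 32 higher and 29 lower, and metabolic genes (405 tested) 85 higher and 44 lower.

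**Figure D2:**
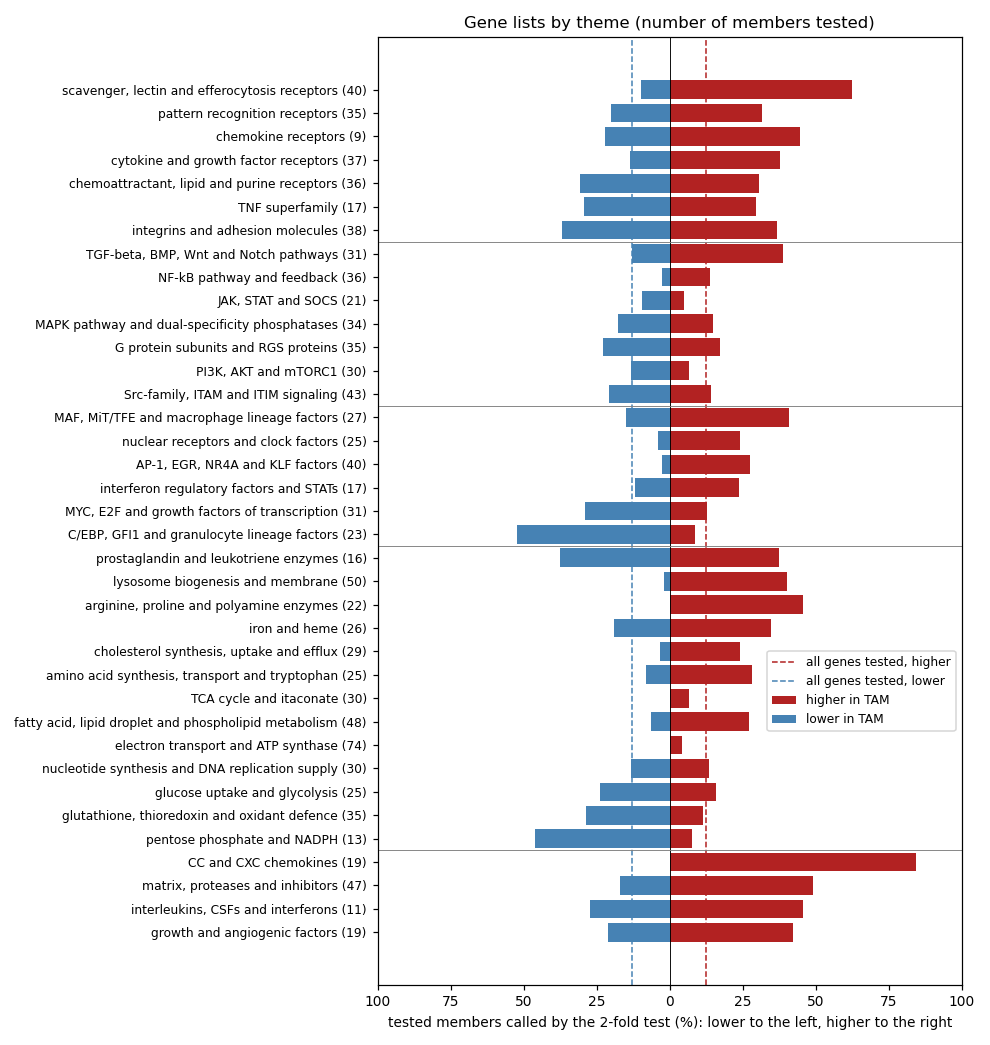
For each of 37 gene lists, grouped by theme from receptors at the top to secreted factors at the bottom, the bars give the percent of tested members higher in TAM (red, to the right) and lower (blue, to the left) by the 2-fold test, and dashed lines give the percent over all genes tested (12.3% higher, 12.9% lower). Chemokines had 84.2% of 19 tested members higher and none lower, and C/EBP, GFI1 and granulocyte lineage factors had 52.2% of 23 lower.

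Chemokine receptors went both ways. Of 9 tested, 5 were higher and 2 lower, 4 and 2 of them by the 2-fold test. Cx3cr1, the fractalkine receptor of tissue macrophages, had 176, 269 and 204 CPM in TAM and 10.8, 14.3, 6.93 and 8.12 CPM in BMDM-T (log2 fold change 4.40 ± 0.24 (SE), adjusted p = 4.6e-12). It overlaps Csrnp1 and Gorasp1 on the same strand, so some of its reads could be theirs. Ccrl2, which presents chemerin without signalling itself, had 858, 917 and 1016 CPM in TAM and 67.8, 56.3, 61.2 and 27.1 CPM in BMDM-T (log2 fold change 4.14 ± 0.22 (SE), adjusted p = 3.9e-12). Both were separate between the groups in all libraries. Ccr1 had 154, 179.8 and 159.5 CPM in TAM and 244, 212, 105 and 122 CPM in BMDM-T and Cxcr4, the marrow-retention receptor, had 132, 198 and 125 CPM in TAM and 243, 209, 158 and 156 CPM in BMDM-T. Their ranges overlapped, and neither passed the test (adjusted p = 0.85 and 0.18). Cxcr4 was called lower when TAM replicate 2 was left out (log2 fold change -0.59).

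Receptors for purines, lipids and chemoattractants were higher and lower in equal number. Of 36 tested, 11 were higher and 11 lower by the 2-fold test. Their median log2 fold change was -0.09, and of 0.06 under total-count scaling. P2rx4, an ATP-gated channel, had 434, 395 and 436 CPM in TAM and 35.5, 48.7, 42.7 and 57.7 CPM in BMDM-T (log2 fold change 3.18 ± 0.17 (SE), adjusted p = 3.7e-12). P2rx7, the ATP channel that licenses the inflammasome, was 11.6-fold higher with 60.7 ± 4.24 CPM in TAM against 5.13 ± 2 CPM in BMDM-T (SD), and P2ry6, the UDP receptor linked to phagocytosis, was 7.16-fold higher with 183 ± 15.5 CPM in TAM against 25.4 ± 5.74 CPM in BMDM-T (SD). No BMDM-T library reached a TAM library for these 3 genes. P2ry14, the UDP-glucose receptor, had 22.2, 22.8 and 42.4 CPM in TAM against 2 counts in BMDM-T, a ratio of 66.9-fold, with a counting interval of 18.3 to 556 at 95% confidence that covers counting error only. Cmklr1, the chemerin receptor, was 24.4-fold higher (198, 208 and 223 CPM in TAM and 2.15, 10.9, 9.24 and 10.8 CPM in BMDM-T). Gpr132, a receptor for lactate and oxidised fatty acids, was 11.7-fold higher (log2 fold change 3.55 ± 0.18 (SE), adjusted p = 2.1e-12).

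Receptors for leukotriene B4, sphingosine 1-phosphate, short-chain fatty acids and formyl peptides were lower in TAM. Ltb4r1 had 52.2, 39.2 and 39.6 CPM in TAM and 1311, 727, 868 and 1097 CPM in BMDM-T (log2 fold change -4.52 ± 0.24 (SE), adjusted p = 3.9e-12). S1pr4 had 0.556, 0.53 and 1.03 CPM in TAM against 352, 211, 199.7 and 266 CPM in BMDM-T, 292-fold lower. Both are known on granulocytes, whose markers are higher in BMDM-T. Ffar2 and Fpr2 were 103-fold and 6.73-fold lower, with Fpr2 still at 25.6, 23.9 and 24.3 CPM in the TAM libraries.

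Growth factor and cytokine receptors gave 14 higher and 5 lower by the 2-fold test among 37 tested. Csf1r, the receptor on which macrophages depend, had 1188, 1257 and 1092 CPM in TAM and 196, 188, 148 and 142 CPM in BMDM-T, and Csf3r, its granulocyte counterpart, had 29.4, 31.3 and 39.6 CPM in TAM and 652, 851, 568 and 429 CPM in BMDM-T. The pair moved in opposite directions, 6.99-fold higher and 18.4-fold lower. Csf1r overlaps Hmgxb3 on the opposite strand. Axl, a receptor tyrosine kinase that recognises dying cells through GAS6, had 337, 339 and 428 CPM in TAM and 8.61, 20.2, 12.7 and 11.7 CPM in BMDM-T (log2 fold change 4.75 ± 0.24 (SE), adjusted p = 1.3e-12), and its ligand Gas6 had 277, 292 and 196 CPM in TAM and 1.08, 5.88, 8.08 and 3.61 CPM in BMDM-T (log2 fold change 5.75 ± 0.38 (SE), adjusted p = 9.1e-11). Receptor and ligand were thus higher in the same libraries. Il21r, the interleukin 21 receptor, was 12.2-fold higher, and the shared gamma chain Il2rg that it signals with was 7.6-fold higher. Il10ra was 3.32-fold higher (282 ± 17.2 CPM in TAM against 84.9 ± 6.85 CPM in BMDM-T, SD). Among those lower, Il17ra had 149, 176 and 114 CPM in TAM and 716, 677, 692 and 629.6 CPM in BMDM-T, Il18rap was 30.3-fold lower and Igf2r 10.1-fold lower. Ifngr1 had 126, 119.9 and 134 CPM in TAM and 156, 154, 152 and 119.97 CPM in BMDM-T with overlapping ranges (adjusted p = 0.33), and Csf2rb did not pass either (adjusted p = 0.17, and 0.046 under total-count scaling).

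**Figure D3:**
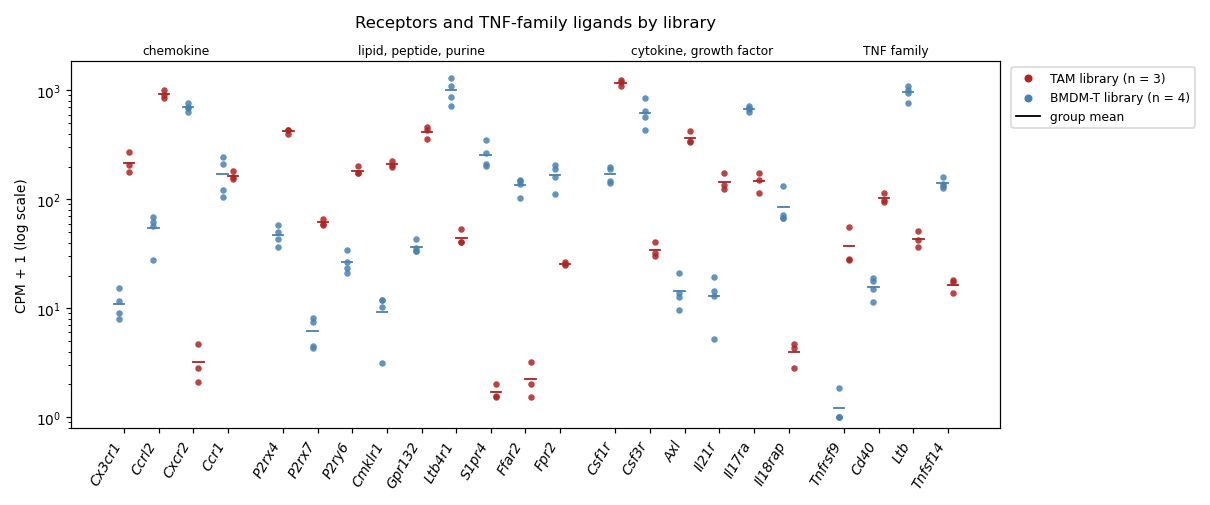
Level of each receptor or ligand in every library, as CPM + 1 on a log axis, with TAM libraries in red (n = 3), BMDM-T libraries in blue (n = 4) and bars at the group means. The groups are separate for all genes shown except Ccr1, where the 3 TAM libraries lie inside the BMDM-T range.

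TNF-family members were also split, 5 higher and 5 lower of 17 tested by the 2-fold test. Tnfrsf9 (4-1BB) had 55, 27.1 and 27.4 CPM in TAM and 1 count in BMDM-T, a ratio of 139-fold, with a counting interval of 24.7 to 5501, and its ligand Tnfsf9 had 30.6, 29.2 and 33.6 CPM against 2 counts, a ratio of 65-fold, with a counting interval of 17.8 to 540.1. Cd40, through which T cells activate macrophages, had 97.2, 92.8 and 113 CPM in TAM and 14, 16.8, 10.4 and 18 CPM in BMDM-T (log2 fold change 2.74 ± 0.21 (SE), adjusted p = 7.2e-10). Tnfsf12 (TWEAK) was 8.7-fold higher with 143 ± 16 CPM in TAM against 16.3 ± 2.03 CPM in BMDM-T (SD). Ltb, which encodes lymphotoxin beta, had 35.6, 41.4 and 49.9 CPM in TAM and 1007, 772, 1109 and 948 CPM in BMDM-T (log2 fold change -4.49 ± 0.26 (SE), adjusted p = 1.5e-11). Tnfsf14 (LIGHT) was 8.85-fold lower with 15.5 ± 2.42 CPM in TAM against 139 ± 14.4 CPM in BMDM-T (SD). Tnf itself had 43.3, 35.5 and 30.5 CPM in TAM and 58.1, 38.7, 50.8 and 46 CPM in BMDM-T, with TAM lower on average but overlapping, and did not pass (adjusted p = 0.089). It was called lower when TAM replicate 1 (log2 fold change -0.56) or BMDM-T replicate 2 (-0.52) was left out.

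Pattern recognition receptors had 11 of 35 higher and 7 lower, and scavenger, lectin and efferocytosis receptors 25 of 40 higher and 4 lower (median log2 fold change 2.27). Tlr2, which senses bacterial lipoproteins, had 277, 294 and 356 CPM in TAM and 73.2, 69.8, 43.9 and 47.8 CPM in BMDM-T (log2 fold change 2.39 ± 0.18 (SE), adjusted p = 7.7e-10). Tlr4 had 16.7, 5.83 and 22 CPM in TAM and 21.5, 14.3, 4.62 and 10.8 CPM in BMDM-T and did not pass (adjusted p = 0.61). Tlr12, a mouse receptor for profilin, was 73.9-fold higher, with 85.6, 140.03 and 118 CPM in TAM and 0, 1.68, 1.15 and 2.71 CPM in BMDM-T. Clec4n, which encodes dectin-2, was 21.3-fold higher. Stab1, a scavenger receptor that overlaps Nt5dc2 on the opposite strand, had 524, 413 and 238 CPM in TAM and 3.23, 10.1, 11.5 and 11.7 CPM in BMDM-T (log2 fold change 5.38 ± 0.33 (SE), adjusted p = 3.2e-11). Folr2, the folate receptor of tissue-resident-type macrophages, had 111, 90.7 and 35.4 CPM in TAM, highest in the first library, against 3 counts in BMDM-T, a ratio of 91.6-fold, with a counting interval of 31.2 to 446.

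Integrins and other adhesion molecules gave 14 higher and 14 lower among 38 tested by the 2-fold test. Itgb5, a vitronectin receptor chain that takes part in uptake of dying cells, had 725, 808 and 455 CPM in TAM and 32.3, 42.9, 47.3 and 44.2 CPM in BMDM-T (log2 fold change 3.98 ± 0.22 (SE), adjusted p = 6.2e-12). Itgb3, another of the chains that pair with alpha-V, had 2.22, 2.12 and 0 CPM in TAM and 31.2, 39.5, 31.2 and 31.6 CPM in BMDM-T (log2 fold change -4.81 ± 0.46 (SE), adjusted p = 1.3e-08). Itgb5 was higher in every TAM library and Itgb3 lower in every one, and without TAM replicate 3 the Itgb3 value was -3.89. Itgax, which encodes CD11c, was 12.6-fold higher (231 ± 42.2 CPM in TAM against 18.4 ± 4.21 CPM in BMDM-T, SD). The neuropilins Nrp1 and Nrp2, co-receptors for semaphorins and VEGF, were 7.08-fold and 4.6-fold higher.

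Proximal kinases and adaptors went both ways. The Src-family, ITAM and ITIM list had 10 of 43 tested members higher and 20 lower, 6 and 9 by the 2-fold test, with a median of -0.43. Under total-count scaling 8 were higher and 7 lower by that test. Src had 83.3, 54.6 and 56.9 CPM in TAM against 2 counts over the 4 BMDM-T libraries, a ratio of 128-fold, with a counting interval of 35.3 to 1061. Fgr, a Src-family kinase of myeloid cells, had 32.8, 24.9 and 34.9 CPM in TAM and 294, 223, 199.7 and 232 CPM in BMDM-T (log2 fold change -2.92 ± 0.20 (SE), adjusted p = 1.3e-10). Syk, which docks on ITAM receptors, had 250.03, 247 and 215 CPM in TAM and 665, 647, 525 and 503 CPM in BMDM-T (log2 fold change -1.30 ± 0.17 (SE), adjusted p = 1.2e-06). Lyn had 134, 154 and 200.1 CPM in TAM and 138, 136, 105 and 139 CPM in BMDM-T and did not pass (adjusted p = 0.12, and 0.034 under total-count scaling), nor did the adaptor Tyrobp, with 1722, 1863 and 3587 CPM in TAM and 2514, 2748, 2002 and 1600.2 CPM in BMDM-T. Its twin adaptor Hcst (DAP10), which recruits PI3K, was 4.93-fold lower with 105 ± 5.54 CPM in TAM against 516 ± 19.7 CPM in BMDM-T (SD). Lat2, a membrane adaptor that overlaps Rfc2 on the opposite strand, was 7.58-fold higher. The sialic acid receptor Siglec1 was 43.6-fold higher (log2 fold change 5.45, and 6.58 without BMDM-T replicate 3) and the orphan receptor Slamf9 47.5-fold higher with 207, 206 and 222 CPM in TAM.

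G protein subunits and RGS proteins, the latter ending G protein signals, went both ways. The list had 6 of 35 higher and 8 lower by the 2-fold test (17.1% and 22.9%, against 12.3% and 12.9% of all genes). Rgs10 had 374, 427 and 472 CPM in TAM and 49.5, 72.3, 67 and 64 CPM in BMDM-T (log2 fold change 2.74 ± 0.17 (SE), adjusted p = 4.4e-11) and Rgs14 had 38.3, 49.3 and 45.2 CPM in TAM and 203, 186, 199 and 213 CPM in BMDM-T (log2 fold change -2.17 ± 0.17 (SE), adjusted p = 7.3e-10). Pde4b and Pde2a both break down cyclic AMP. Pde4b was 10.5-fold higher with 57.8, 52.5 and 90.7 CPM in TAM, and Pde2a was 10.3-fold lower with 78.9, 62.6 and 38.3 CPM. Adrbk1 (GRK2) and Grk6, kinases that switch off active receptors, were 3.64-fold and 4.41-fold lower.

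MAPK and PI3K pathway genes were close to the background. In the MAPK list 5 of 34 were higher and 6 lower by the 2-fold test, and in the PI3K, AKT and mTORC1 list 2 of 30 were higher and 4 lower. The balance of both lists flipped under total-count scaling, to 5 higher and 3 lower and to 4 higher and 1 lower. Rasgrp4, a RAS activator that overlaps Fam98c on the opposite strand, was 14.2-fold lower, and Rasa4, a RAS inactivator, was 7.92-fold higher with 222, 256 and 280.2 CPM in TAM and 20.5, 36.1, 38.1 and 32.5 CPM in BMDM-T. The dual-specificity phosphatases Dusp3 and Dusp16 were 4.6-fold and 3.35-fold higher, Dusp6 was called higher (log2 fold change 1.30 ± 0.31 (SE), adjusted p = 0.0011) and Dusp1 had 179, 335 and 386 CPM in TAM and 579, 434, 353 and 141 CPM in BMDM-T with overlapping ranges (adjusted p = 0.44). Ddit4 (REDD1), a stress-induced inhibitor of mTORC1, had 293, 224 and 199 CPM in TAM and 26.9, 37, 19.6 and 14.4 CPM in BMDM-T (log2 fold change 3.26 ± 0.25 (SE), adjusted p = 6.2e-10). Pik3cd and Pik3cg, the leukocyte catalytic subunits of PI3K, were 2.67-fold and 3.47-fold lower, and the lipid phosphatase Inppl1 (SHIP2) was 2.76-fold higher.

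NF-kB pathway genes had 16 of 36 higher and 6 lower, with 5 and 1 by the 2-fold test. Those 5 and 1 are 13.9% and 2.78%, against 12.3% and 12.9% of all genes. Nfkbie, an inhibitor that holds NF-kB in the cytoplasm, had 236, 180.3 and 245 CPM in TAM and 32.3, 35.3, 33.5 and 25.3 CPM in BMDM-T (log2 fold change 2.80 ± 0.18 (SE), adjusted p = 7.6e-11). Tnfaip3 (A20) had 68.9, 78.5 and 111 CPM in TAM and 7.54, 13.4, 15 and 3.61 CPM in BMDM-T (log2 fold change 3.14 ± 0.30 (SE), adjusted p = 2.1e-08). Zc3h12a (regnase-1), which degrades cytokine mRNAs, was 4.5-fold higher. In each of the 3 the lowest TAM library was above the highest BMDM-T library. Nfkb2 and Relb were called higher at 1.26 ± 0.17 and 1.19 ± 0.21 (log2 fold change ± SE), and Nfkbia at 0.91 ± 0.25, though its TAM replicate 3 (592 CPM) lay within the BMDM-T range. Irak3, a brake on Toll-like receptor signalling that overlaps Tmbim4 on the opposite strand, was 5.3-fold lower. In the JAK, STAT and SOCS list 1 of 21 was higher and 2 lower by the 2-fold test. Socs2 had 55, 58.9 and 88.7 CPM in TAM and 8.61, 22.7, 10.4 and 9.92 CPM in BMDM-T (log2 fold change 2.36 ± 0.33 (SE), adjusted p = 4.6e-06), and Stat5b was 2.55-fold lower with 48.9 ± 7.28 CPM in TAM against 125 ± 9.59 CPM in BMDM-T (SD).

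The TGF-beta, BMP, Wnt and Notch list, which holds ligands, receptors, antagonists and targets, had 12 of 31 higher and 4 lower by the 2-fold test and a median of 0.73. Of the ligands, Tgfb3, which overlaps Ttll5 on the opposite strand, had 98.3, 64.2 and 85.8 CPM in TAM and 3 counts in BMDM-T, a ratio of 114-fold, with a counting interval of 38.8 to 553. Tgfb1 was called higher (log2 fold change 0.73 ± 0.18 (SE), adjusted p = 0.002), and Inhba, the activin A subunit, was 5.71-fold lower with 58.1, 51.3, 43.9 and 62.2 CPM in BMDM-T (log2 fold change -2.51, and -3.13 without TAM replicate 1). The receptors Tgfbr1 and Tgfbr2 had 103, 111 and 131 CPM in TAM and 21.5, 25.2, 20.8 and 24.4 CPM in BMDM-T and 30.6, 57.8 and 60.8 CPM in TAM and 18.3, 18.5, 8.08 and 11.7 CPM in BMDM-T, 4.97-fold and 3.49-fold higher. All TAM libraries exceeded all BMDM-T libraries for both receptors. Acvrl1 (ALK1), a BMP9 receptor, was 5.71-fold higher. Tgif1, a repressor of SMAD targets, was 15.8-fold higher, and Tcf7l2, an effector of Wnt signals, 10.6-fold higher. For Notch, the receptor gene Notch1 was 3.01-fold lower and its antagonist Numb 6.62-fold lower, while the target Hes1 was 5.89-fold higher.

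Among transcription factors, 11 of 27 tested MAF, MiT/TFE and macrophage lineage factors were higher and 4 lower by the 2-fold test, while 2 of 23 C/EBP, GFI1 and granulocyte lineage factors were higher and 12 lower. Maff, a small MAF protein, was 26.9-fold higher. Spi1, which encodes PU.1, was present in both groups, with 392, 243 and 223 CPM in TAM and 952, 597, 642 and 646 CPM in BMDM-T, and was called lower in TAM (log2 fold change -1.31 ± 0.24 (SE), adjusted p = 8.0e-05). Spib, a PU.1 relative of B and plasmacytoid dendritic cells, had 127, 74.8, 36.9 and 42.4 CPM in BMDM-T and 2 counts in TAM, a ratio of 264-fold, with a counting interval of 72.4 to 2189, beside B-lineage markers of 511 to 936 CPM. Gfi1, the repressor needed for granulocyte formation, had 40.9, 39.5, 48.5 and 37.9 CPM in BMDM-T and 1 count in TAM, a ratio of 312-fold, with a counting interval of 55.2 to 12389. Myb, a factor of dividing progenitors, was at 7.54, 21, 24.2 and 26.2 CPM in BMDM-T and 0 in TAM, at least 50.4-fold lower.

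Members of the C/EBP, ID and KLF families went both ways. Cebpe, one of the granulocyte markers, was 169-fold lower in TAM (log2 fold change -7.40 ± 0.32 (SE)), while Cebpa and Cebpb were higher. Cebpa had 185, 208 and 209.9 CPM in TAM and 37.7, 40.3, 50.8 and 46 CPM in BMDM-T (log2 fold change 2.20 ± 0.17 (SE), adjusted p = 7.4e-10). Cebpb, which overlaps Tmem189 on the opposite strand, had 1776, 1327 and 1055 CPM in TAM and 886, 764, 868 and 693 CPM in BMDM-T and was called 1.73-fold higher. Runx3, a factor of lymphocytes and Langerhans cells, was 13.9-fold higher with 378, 387 and 278 CPM in TAM and 24.8, 19.3, 23.1 and 32.5 CPM in BMDM-T. Id2 was 5.37-fold higher and Id1 9.86-fold lower, both inhibitors of E-box binding factors, with 406, 345 and 489 CPM and 20.6, 8.49 and 21.7 CPM in TAM. Klf4, a factor of monocytes and macrophages, had 313, 365 and 328 CPM in TAM and 30.1, 46.2, 36.9 and 44.2 CPM in BMDM-T (log2 fold change 3.08 ± 0.19 (SE), adjusted p = 3.3e-11), and Klf5 had 1.67, 1.59 and 1.55 CPM in TAM and 118, 108, 115 and 106 CPM in BMDM-T (log2 fold change -6.05 ± 0.29 (SE), adjusted p = 7.4e-13). Klf2 had 147, 225 and 190.02 CPM in TAM and 202, 149.6, 182 and 161 CPM in BMDM-T with overlapping ranges (adjusted p = 0.6). Of the interferon regulatory factors, Irf7, Irf5 and Irf8 were 3.95-fold, 2.62-fold and 2.44-fold higher and Irf4 4.4-fold lower, with Irf1 not passing (adjusted p = 0.47). Irf7 and Irf5 overlap Phrf1 and Tnpo3 on the opposite strand.

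Of 40 tested AP-1, EGR, NR4A and KLF factors, many of them induced by signals, 11 were higher and 1 lower by the 2-fold test. Nr4a2 and Nr4a3, nuclear receptors induced within minutes of stimulation, had 118, 94.9 and 91 CPM in TAM and 2.15, 1.68, 3.46 and 3.61 CPM in BMDM-T and 108, 106 and 94.6 CPM in TAM and 1.08, 2.52, 0 and 0.902 CPM in BMDM-T. They were 36.4-fold and 78.4-fold higher, and the log2 fold change of Nr4a3 was 7.04 without BMDM-T replicate 2 and 6.29 with it. Crem, a cyclic AMP-responsive factor, had 85, 45.6 and 65.9 CPM in TAM and 3.23, 2.52, 1.15 and 0.902 CPM in BMDM-T (log2 fold change 5.00 ± 0.41 (SE), adjusted p = 1.4e-09). Such genes can be induced by handling of tissue. The dissociation and stress genes had a higher sum in TAM (11411 to 12137 CPM against 4333 to 7377 CPM). That list shares members with this one, so it is not separate evidence. Members of the dissociation and stress list did not all rise: of 17 tested, 11 were higher, 2 lower and 4 not called by adjusted p. The part of tissue digestion in these differences was not tested. Vdr, the vitamin D receptor, was 20.3-fold higher with 35, 19.1 and 26.1 CPM in TAM and 4.31, 0, 0 and 0.902 CPM in BMDM-T (log2 fold change 4.34, and 6.03 without BMDM-T replicate 1), and Rxra, its partner, 3.22-fold higher. The oxysterol receptor Nr1h3 was 3.36-fold higher, and Rara, a retinoic acid receptor that guides granulocyte maturation, 3.23-fold lower. Per1 and Bhlhe40, clock-linked repressors, were 5.85-fold and 4.92-fold higher.

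D-type cyclins and the inhibitors of their kinases went both ways. Cyclins D1 and D2 were higher in TAM, with 222, 193 and 138 CPM in TAM and 5.38, 8.4, 12.7 and 5.41 CPM in BMDM-T for Ccnd1 (log2 fold change 4.53 ± 0.32 (SE), adjusted p = 2.2e-10) and a 4.67-fold difference for Ccnd2. Cyclin D3 was lower, with 111, 83.8 and 64.9 CPM in TAM and 2950.1, 1939.8, 2916 and 2531 CPM in BMDM-T for Ccnd3 (log2 fold change -4.91 ± 0.24 (SE), adjusted p = 1.2e-12), which overlaps Bysl on the opposite strand. Cdkn1a (p21), an inhibitor of cyclin-dependent kinases, had 1225, 1343 and 1338 CPM in TAM and 34.5, 60.5, 63.5 and 37.9 CPM in BMDM-T (log2 fold change 4.73 ± 0.23 (SE), adjusted p = 8.9e-13), and Cdkn2d (p19-INK4D) had 37.2, 46.1 and 45.5 CPM in TAM and 834, 619, 743 and 702 CPM in BMDM-T (log2 fold change -4.07 ± 0.20 (SE), adjusted p = 1.0e-12). None of these overlapped between the groups. E2f2, an activator of replication genes, was 15.9-fold lower, whereas E2f1 and Myc had overlapping ranges (adjusted p = 0.22 and 0.47). Mxd1, a MYC antagonist of maturing granulocytes, was 4.81-fold lower with 89 ± 18.9 CPM in TAM against 426 ± 49.2 CPM in BMDM-T (SD). In the whole MYC, E2F and growth list, 4 of 31 were higher and 9 lower by the 2-fold test.

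**Figure D4:**
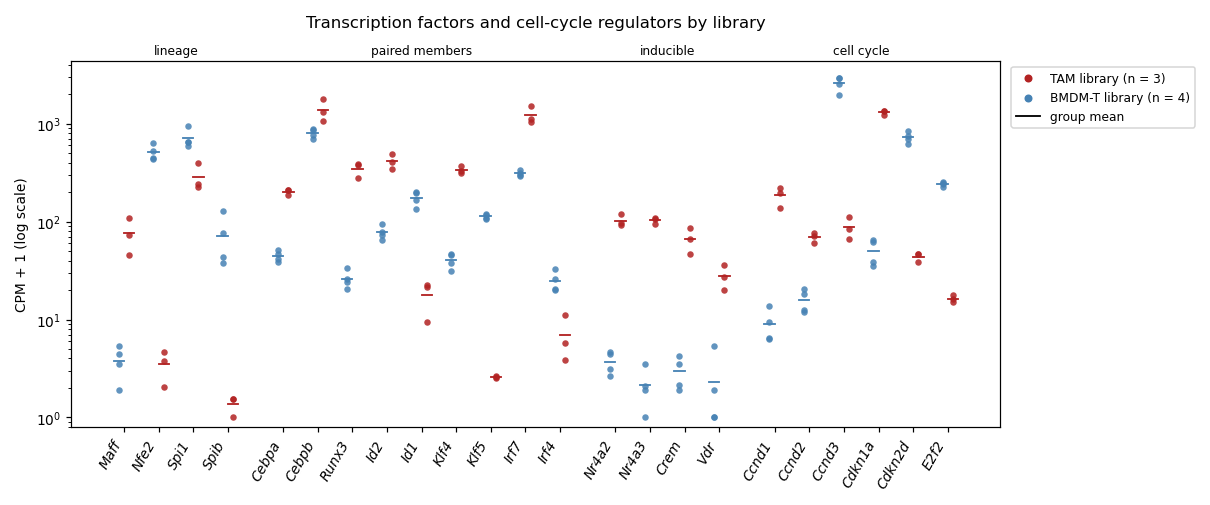
Level of transcription factors and cell-cycle regulators in every library, as CPM + 1 on a log axis, with TAM libraries in red (n = 3), BMDM-T libraries in blue (n = 4) and bars at the group means. Id2 and Id1, Klf4 and Klf5, and Ccnd1 and Ccnd3 lie on opposite sides.

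Genes of glucose uptake and glycolysis went both ways. The list had 9 of 25 higher and 10 lower, 4 and 6 by the 2-fold test. Those 4 and 6 are 16% and 24%, against 12.3% and 12.9% of all genes. The glucose transporter Slc2a1 had 327, 263 and 324 CPM in TAM and 91.5, 72.3, 63.5 and 44.2 CPM in BMDM-T (log2 fold change 2.17 ± 0.21 (SE), adjusted p = 2.6e-08), and Slc2a3 had 3.33, 6.9 and 5.43 CPM in TAM and 565, 379.9, 396 and 327 CPM in BMDM-T (log2 fold change -6.28 ± 0.29 (SE), adjusted p = 3.5e-13). Among hexokinases, Hk2 was called higher (log2 fold change 0.99 ± 0.22 (SE), adjusted p = 5.5e-04), and Hk1 and Hk3 lower (-0.73 ± 0.16 and -1.88 ± 0.17). Hk1 overlaps Hk1os on the opposite strand. Pfkfb4, which sets the rate of glycolysis through fructose 2,6-bisphosphate, was 3.85-fold lower with 104, 145 and 143 CPM in TAM and 552, 536, 473 and 454 CPM in BMDM-T. Pfkfb3 had 58.9, 102 and 88.9 CPM in TAM and 66.8, 54.6, 31.2 and 41.5 CPM in BMDM-T, and its call as higher (log2 fold change 0.78 ± 0.24 (SE), adjusted p = 0.008) was lost without TAM replicate 2 (adjusted p = 0.057). Downstream, Pfkl, Tpi1 and Ldha were called higher, 3.07-fold, 2.81-fold and 1.8-fold. Tpi1 overlaps Spsb2 on the opposite strand. The neuronal enolase gene Eno2 had 38.9, 37.7 and 37.2 CPM in TAM and 1 count in BMDM-T, a ratio of 154-fold, with a counting interval of 27.5 to 6122. Glycogen phosphorylase Pygl was 14.5-fold lower.

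The pentose phosphate pathway, which supplies NADPH to the oxidase of granulocytes, was lower in TAM. Of 13 members tested, 1 was higher and 6 lower by the 2-fold test, and the median log2 fold change was -1.29. G6pdx, the first enzyme, had 79.5, 95.5 and 105 CPM in TAM and 988, 622, 703 and 649 CPM in BMDM-T (log2 fold change -2.98 ± 0.24 (SE), adjusted p = 1.6e-09). Pgd and Taldo1 had 557, 529 and 413 CPM in TAM and 1864, 1329.6, 1854 and 1892 CPM in BMDM-T and 1122, 1218 and 1281 CPM in TAM and 4006, 3577, 3779.7 and 3024 CPM in BMDM-T, 3.47-fold and 2.98-fold lower. All 3 enzymes were separate between groups. Neutrophil markers were also lower in TAM, and their part was not tested. In the glutathione list 4 of 35 were higher and 10 lower by the 2-fold test, with Gsr 8.53-fold lower and Gclm 6.32-fold lower, while Srxn1, which repairs peroxiredoxins, was 8.3-fold higher.

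Differences in mitochondrial genes were mostly small, and more of them were higher in TAM than lower. By adjusted p, 30.1% of all genes tested were higher and 28.7% lower. In the electron transport and ATP synthase list 25 of 74 were higher and 4 lower by adjusted p, but only 3 and 0 by the 2-fold test, with a median of 0.16. The TCA list had 16 of 30 higher and 3 lower, 2 and 0 by the 2-fold test, with a median of 0.47. Citrate synthase Cs had 123, 110.3 and 131 CPM in TAM and 143, 114, 117 and 134 CPM in BMDM-T, overlapping (adjusted p = 0.79).

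Arginine, proline and polyamine enzymes were higher, 10 of 22 by the 2-fold test with 0 lower and a median of 1.00. Arg1, which splits arginine into ornithine and urea, was 215-fold higher in TAM. Gatm, which diverts arginine to creatine, had 751, 629 and 967 CPM in TAM and 23.7, 60.5, 76.2 and 55 CPM in BMDM-T (log2 fold change 3.86 ± 0.25 (SE), adjusted p = 7.9e-11), and the creatine kinase Ckb had 273, 341 and 239.9 CPM in TAM and 20.5, 37.8, 45 and 39.7 CPM in BMDM-T (log2 fold change 2.98 ± 0.24 (SE), adjusted p = 1.2e-09). Odc1, which turns ornithine into putrescine, was 4.9-fold higher, and Nos2, which makes nitric oxide from arginine, 3.52-fold higher. In Nos2 the first BMDM-T library, at 30.1 CPM, stood above the other 3, and without it the log2 fold change was 2.40 in place of 1.81. The arginine transporter gene Slc7a2 had 20.0, 9.02 and 24.6 CPM in TAM against 3 counts, a ratio of 26.7-fold, with a counting interval of 8.97 to 131. For other amino acids, the transporter chain Slc3a2 was 7.67-fold higher and its partner Slc7a8 17.4-fold higher, while asparagine synthetase Asns was 10.6-fold lower with 8.89, 4.24 and 4.4 CPM in TAM and 86.1, 45.4, 56.6 and 53.2 CPM in BMDM-T.

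Ferritin and transferrin genes were higher in TAM and the iron exporter lower. Of 26 iron and heme genes tested, 9 were higher and 5 lower by the 2-fold test. Ferritin heavy chain Fth1 had 11873, 10396 and 12438 CPM in TAM and 3602, 3339, 2217 and 1917 CPM in BMDM-T (log2 fold change 2.06 ± 0.21 (SE), adjusted p = 3.7e-08), and transferrin, Trf, was 11.9-fold higher with 3173, 2488 and 1778 CPM in TAM and 219, 198, 174 and 239.9 CPM in BMDM-T. The iron exporter Slc40a1 (ferroportin) was 11.2-fold lower, with 12.9, 14.3, 25.4 and 3.61 CPM in BMDM-T and 0.556, 0 and 2.07 CPM in TAM (log2 fold change -3.49, and -5.18 without TAM replicate 3). Hfe was 6.37-fold higher and Alas1, which starts heme synthesis, 3.05-fold lower. In lipid metabolism 13 of 48 were higher and 3 lower by the 2-fold test. Ch25h, which makes 25-hydroxycholesterol, had 63.3, 65.8 and 93.3 CPM in TAM and 1 count in BMDM-T, a ratio of 325-fold, with a counting interval of 58 to 12843. The desaturase Fads1 was 12.3-fold higher and the phospholipid transfer protein Pltp, which overlaps Ctsa on the opposite strand, 8.8-fold higher. Dgat2, which makes triglyceride, was 7.78-fold lower and Acsl1 2.89-fold lower. Cholesterol genes had 7 of 29 higher and 1 lower by the 2-fold test, and the efflux transporter Abcg1 did not pass (adjusted p = 0.23).

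Arachidonic acid enzymes had 6 higher and 6 lower of 16 tested by the 2-fold test. Among enzymes of prostanoids, Hpgd, which inactivates prostaglandins, had 6.46, 7.56, 8.08 and 9.92 CPM in BMDM-T and 2 counts in TAM, a ratio of 30.4-fold, with a counting interval of 7.79 to 262. In contrast, cyclooxygenase 1 (Ptgs1) had 173, 199 and 232 CPM in TAM and 46.3, 51.3, 73.9 and 56.8 CPM in BMDM-T (log2 fold change 1.83 ± 0.18 (SE), adjusted p = 2.2e-08). Thromboxane synthase Tbxas1, which overlaps Hipk2 on the opposite strand, had 269, 297 and 327 CPM in TAM and 20.5, 27.7, 19.6 and 17.1 CPM in BMDM-T (log2 fold change 3.79 ± 0.20 (SE), adjusted p = 3.7e-12). The prostaglandin D synthase gene Hpgds had 9.45, 18.6 and 11.1 CPM in TAM and 0 in BMDM-T, at least 17.2-fold higher. In the leukotriene branch, 5-lipoxygenase Alox5 had 19.4, 19.1 and 6.2 CPM in TAM and 261, 219, 239 and 229 CPM in BMDM-T (log2 fold change -4.09 ± 0.28 (SE), adjusted p = 1.2e-10). Its activating protein Alox5ap and the leukotriene B4 enzyme Lta4h were 5.73-fold and 8.66-fold lower, but the leukotriene C4 enzyme Ltc4s was 19.2-fold higher with 113, 115 and 49.6 CPM in TAM and 3.23, 3.36, 6.93 and 5.41 CPM in BMDM-T. The 2 enzymes that compete for leukotriene A4 thus lay on opposite sides. Cyp4f18, which inactivates leukotriene B4 and overlaps Zfp961 on the opposite strand, was 8.8-fold lower, as was the receptor gene Ltb4r1 above.

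Nucleotide metabolism had 4 of 30 higher and 4 lower by the 2-fold test (13.3% each, against 12.3% and 12.9% of all genes). Those higher included the surface enzymes Cd38, which consumes NAD, and Nt5e (CD73), which makes adenosine, at 14.4-fold and 4.85-fold. Adenosine deaminase Ada was 5.91-fold higher with 131 ± 6.01 CPM in TAM against 22.2 ± 4.43 CPM in BMDM-T (SD). Uridine phosphorylase Upp1, the ribonucleotide reductase subunit Rrm2 and xanthine dehydrogenase Xdh were 14.7-fold, 5.62-fold and 4.44-fold lower.

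**Figure D5:**
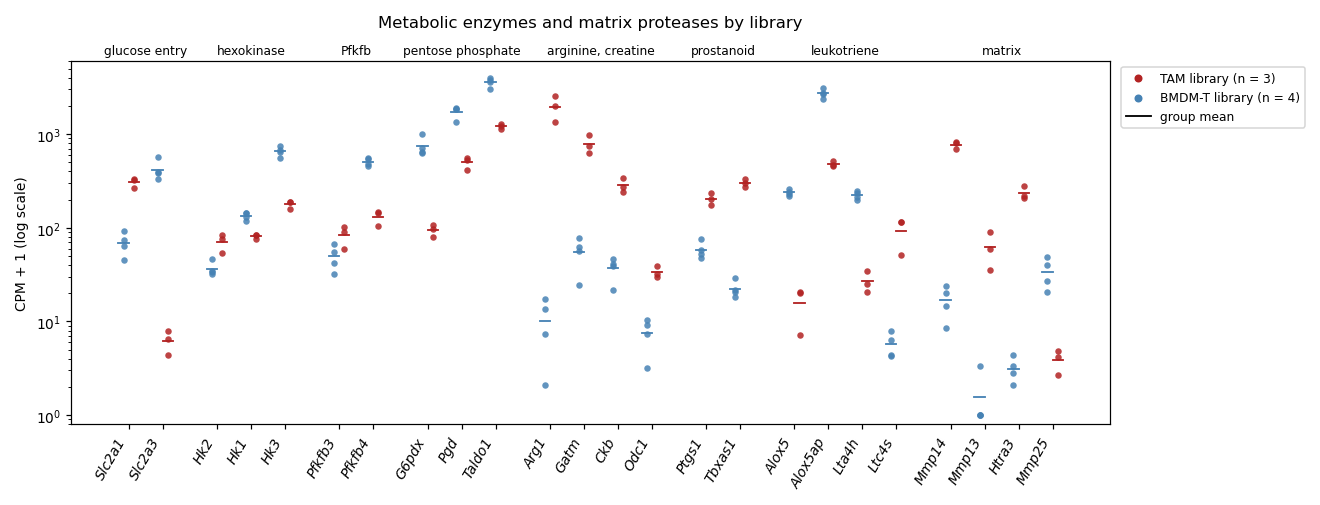
Level of metabolic enzymes and matrix proteases in every library, as CPM + 1 on a log axis, with TAM libraries in red (n = 3), BMDM-T libraries in blue (n = 4) and bars at the group means. Slc2a1 and Slc2a3, and Ltc4s and Lta4h, lie on opposite sides, and only Pfkfb3 overlaps.

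Lysosomal genes were higher in TAM, 33 of 50 tested by adjusted p with 5 lower, and 20 and 1 by the 2-fold test (median 1.13). Lgmn, the asparaginyl endopeptidase legumain, had 4679, 4532 and 4495 CPM in TAM and 92.6, 157, 137 and 119 CPM in BMDM-T (log2 fold change 5.17 ± 0.22 (SE), adjusted p = 1.3e-13). The cysteine protease Ctsl had 904, 641 and 792 CPM in TAM and 57.1, 111, 78.5 and 57.7 CPM in BMDM-T (log2 fold change 3.35 ± 0.21 (SE), adjusted p = 4.5e-11). Galns, which removes sulfate from keratan sulfate, was the 1 member lower by the 2-fold test, at 2.64-fold. TFEB and its relatives bind the letters CACGTG (an E-box, a palindrome that reads alike on both strands) in promoters of lysosomal genes. Tfeb itself was 2.73-fold lower in TAM (25.6, 26.5 and 25.3 CPM in TAM and 62.4, 58, 65.8 and 95.6 CPM in BMDM-T). In the window from 250 bases before to 50 bases after a RefSeq start (GRCm38.p6), available for 5851 of the 7518 genes, the letters were in 14 of 37 lysosomal genes (37.8%) and in 12.6% of all genes tested. They were in 14.1% of the genes higher by the 2-fold test and 12.0% of those lower. Of the 14 lysosomal genes with the letters 8 were called higher (median log2 fold change 0.91), and of the 23 without them 16 (median 1.07). Lgmn and Ctsl are the 2 cases with the letters that are printed here, 5′ to 3′ along the gene's strand with CACGTG in capitals. Their windows are chr12:102439043-102439342 and chr13:64370471-64370770, both on the minus strand, and the letters begin 49 and 236 bases before the RefSeq start. Here and below, a gene with several RefSeq starts was counted if any window held the letters, and printed windows were chosen for holding them. In GENCODE M21 the Ctsl gene starts at 64370890, upstream of its window, so its letters lie inside the annotated gene.
Lgmn: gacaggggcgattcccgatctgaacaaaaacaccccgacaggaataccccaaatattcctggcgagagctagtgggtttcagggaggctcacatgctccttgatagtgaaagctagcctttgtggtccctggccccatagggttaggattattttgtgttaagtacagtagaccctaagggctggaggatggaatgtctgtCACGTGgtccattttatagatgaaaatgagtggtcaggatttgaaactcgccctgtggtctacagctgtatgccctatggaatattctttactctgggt
Ctsl: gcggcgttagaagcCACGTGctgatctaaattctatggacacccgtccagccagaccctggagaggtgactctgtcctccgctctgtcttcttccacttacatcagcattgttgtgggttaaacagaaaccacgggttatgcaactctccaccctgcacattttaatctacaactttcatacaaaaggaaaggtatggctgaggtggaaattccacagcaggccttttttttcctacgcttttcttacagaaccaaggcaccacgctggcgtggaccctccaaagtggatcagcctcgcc

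Of the 5 themes, as listed here with earlier results known, secreted factors had the highest median log2 fold change (1.72). Among chemokines, 16 of 19 tested were higher and 0 lower by the 2-fold test, with a median log2 fold change of 4.66. The CCR2 ligands Ccl2, Ccl7 and Ccl12 and the related Ccl8 had 188, 146 and 161 CPM, 221, 209.5 and 164 CPM, 218, 203 and 238 CPM and 123, 173 and 348 CPM in TAM, and the highest value of any of them in a BMDM-T library was 5.04 CPM. Ccl2, Ccl7, Ccl12 and Ccl8 were 54.6-fold, 185-fold, 96.4-fold and 107-fold higher, and Ccl8 had a log2 fold change of 8.12 without BMDM-T replicate 2 against 6.74 with it. Platelet factor 4, Pf4, which macrophages also make, was 14.7-fold higher with 883, 459.9 and 385 CPM in TAM and 28, 52.1, 24.2 and 48.7 CPM in BMDM-T. Ccl6, which overlaps E230016K23Rik on the opposite strand, had 1029, 629 and 402 CPM in TAM and 755, 798, 529 and 477 CPM in BMDM-T, overlapping (adjusted p = 0.75).

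Cytokines were mixed, with 5 higher and 3 lower of 11 tested by the 2-fold test. Osm, an interleukin 6-family cytokine, had 785, 738 and 538 CPM in TAM and 165, 153, 192 and 100.1 CPM in BMDM-T (log2 fold change 2.17 ± 0.22 (SE), adjusted p = 4.2e-08), and Mif had 862, 741 and 809 CPM in TAM and 141, 185, 154 and 131 CPM in BMDM-T (log2 fold change 2.40 ± 0.18 (SE), adjusted p = 4.0e-10). Il1a had 16.7, 19.6 and 39.3 CPM in TAM against 3 counts in BMDM-T, a ratio of 39.6-fold, with a counting interval of 13.4 to 193, and Il1b was 3.11-fold higher. TAM replicate 3 was highest for Il1a. Il16, which overlaps Stard5 on the opposite strand, was 9.33-fold lower, and Ebi3, a subunit of interleukins 27 and 35, 3.32-fold lower. Csf1, the ligand of the receptor that was higher in TAM, had 34.4, 10.6 and 7.24 CPM in TAM and 73.2, 77.3, 53.1 and 59.5 CPM in BMDM-T (log2 fold change -2.01 ± 0.43 (SE), adjusted p = 4.5e-04). Its levels in TAM ranged widely, the first library being the highest, and the log2 fold change was -2.93 without it. Il10 was at 10.001, 12.2 and 5.17 CPM in TAM and 0 in BMDM-T, at least 11-fold higher.

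Growth factors had 8 of 19 higher and 4 lower by the 2-fold test. Vegfa was 15.4-fold higher with 419 ± 50.9 CPM in TAM against 27.3 ± 2.83 CPM in BMDM-T (SD). Its relative Pgf had 112, 56.8 and 47.3 CPM in TAM against 2 counts, a ratio of 133-fold, with a counting interval of 36.7 to 1104. The PDGF chains Pdgfa and Pdgfb had 63.3, 43.5 and 51.2 CPM in TAM and 5.38, 3.36, 1.15 and 1.8 CPM in BMDM-T and 99.5, 58.3 and 47.3 CPM in TAM and 1.08, 8.4, 9.24 and 12.6 CPM in BMDM-T, 17.4-fold and 8.37-fold higher. Each TAM library was above all BMDM-T libraries for both chains. Hbegf, an EGF receptor ligand, had 26.1, 9.02 and 11.1 CPM against 2 counts, a ratio of 29-fold, with a counting interval of 7.83 to 242. Prok2 (Bv8), an angiogenic peptide of granulocytes, went the other way, with 411, 166, 217 and 218 CPM in BMDM-T and 2 counts in TAM, a ratio of 931-fold, with a counting interval of 257 to 7697. Igfbp6, which binds insulin-like growth factors, was 13.1-fold lower, and Sema4c 13.7-fold higher (log2 fold change 3.77, and 4.51 without BMDM-T replicate 3).

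Matrix proteins and proteases had 23 of 47 higher and 8 lower by the 2-fold test. The membrane-bound collagenase Mmp14 (chromosome 14, 54431612 to 54445364, plus strand, GRCm38) had 815, 800.4 and 693 CPM in TAM and 7.54, 19.3, 23.1 and 13.5 CPM in BMDM-T (log2 fold change 5.59 ± 0.28 (SE), adjusted p = 1.4e-12). The secreted serine protease Htra3 had 217, 281 and 205 CPM in TAM and 1.08, 3.36, 2.31 and 1.8 CPM in BMDM-T (log2 fold change 6.68 ± 0.28 (SE), adjusted p = 8.3e-14). Collagenase 3, Mmp13, had 58.9, 34.5 and 89.5 CPM in TAM and 2 counts in BMDM-T, both in 1 library, a ratio of 140.1-fold, with a counting interval of 38.6 to 1159.9. Against these, the gelatinase Mmp9, which granulocytes store, was 90.3-fold lower and the membrane-anchored Mmp25 10.4-fold lower, with 1.67, 3.18 and 3.88 CPM in TAM and 47.4, 26.1, 19.6 and 38.8 CPM in BMDM-T. Mmp19, which overlaps Tmem198b on the opposite strand, was 15-fold higher. Plau, the plasminogen activator, was 7.1-fold higher. Fibronectin (Fn1), osteopontin (Spp1), thrombospondin 1 (Thbs1) and Tgfbi were 6.96-fold, 27.6-fold, 10.4-fold and 2.98-fold higher, and the clotting factor F13a1 3.01-fold lower (log2 fold change -1.59, and -2.24 without TAM replicate 1).

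AP-1 factors bind TGACTCA (on the other strand TGAGTCA), letters known from collagenase promoters. They were in the start-site window of 8.08% of the genes higher by the 2-fold test, 6.35% of those lower and 4.55% of all genes tested. The letters GAGGAAGT (PU.1) were in 6.64%, 6.61% and 4.29%, TTTCCCGC (E2F) in 2.02%, 1.85% and 2.48%, TGCTGAC (part of a MAF site) in 4.62%, 4.76% and 4.15%, and TTGCGCAA (C/EBP) in 0%, 0.529% and 0.427%, each on either strand. Higher and lower genes held TGACTCA and GAGGAAGT more often than all genes, in both directions. Mmp13 is shown as a case that holds TGACTCA, in capitals, 35 bases before its RefSeq start (chr9:7272264-7272563, plus strand, GRCm38.p6).
Mmp13: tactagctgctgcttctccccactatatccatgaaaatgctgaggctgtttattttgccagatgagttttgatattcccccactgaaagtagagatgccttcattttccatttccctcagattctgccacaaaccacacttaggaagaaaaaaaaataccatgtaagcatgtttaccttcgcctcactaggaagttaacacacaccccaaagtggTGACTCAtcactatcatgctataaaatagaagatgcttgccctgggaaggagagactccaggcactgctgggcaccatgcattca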

How the data were processed

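Single-end 3' RNA-seq libraries with 8-base molecular identifiers were made from sorted cells, per the labels' protocols. The deposited values are raw counts per gene symbol. Bcl2fastq, STAR 2.4.2a, HTSeq and mm10 are named in the submitters' processing notes, while the sources used here give no annotation, strand setting or collapsing of identifiers. Of 24421 rows, 14214 carry no symbol, hold no batch 1 count and were not used, and 17 symbols are spreadsheet dates. The 6 libraries of the second batch were not used, because their values did not follow the symbols (Spearman correlation with batch 1 of about 0).

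Counts of the 11 libraries of batch 1, which include 4 marrow libraries of tumour-free mice (BMDM-H, labelled with an age of 12 weeks against 8 weeks for the other groups), were filtered (filterByExpr), scaled with TMM factors and fitted with edgeR 4.0.16 in R 4.3.3. TAM minus BMDM-T was tested with the quasi-likelihood test and, with glmTreat, against a fold of 2, with Benjamini-Hochberg adjustment over all 7518 genes and a threshold of 0.05. Standard errors were derived from the log2 fold change and its F statistic. In data simulated for TAM against BMDM-T with 7518 genes, the first test recovered 94% of 4-fold and 52% of 2-fold differences, and the test against a fold of 2 recovered 74% of 4-fold differences. Low counts limit precision: 3 counts are worth 0.776 to 1.67 CPM in a TAM library and 2.52 to 3.46 CPM in a BMDM-T library. Ratios with 1 to 3 counts in a group have exact 95% counting intervals, which cover counting error only.

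Genes are named by a rule: the 12 largest rises and falls by the 2-fold test with a mean of 30 CPM or more where higher and 10 counts or more per group, up to 6 genes with 0 counts in a group per direction, up to 4 members per list and direction, and list members marked to be described whatever their result. Granule, complement and MHC genes were left out of the first 2. The largest rises and falls were taken only from genes whose libraries did not overlap between the groups. Partners named for overlap were added after their positions were seen. The members and the 54 lists were chosen with earlier results of these data known. Alternatives were DESeq2 1.42.0, total-count scaling, no filter, the 7 libraries alone, limma-voom (limma 3.58.1), thinning to at most 931278 counts, each library left out in turn and the replicate number as a block. Coordinates are from GENCODE M21 (GRCm38), and promoter sequences are from RefSeq. Some genes and 1 list are not reported here.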

Additional observations from a re-analysis of the deposited data

Results flagged for a closer look

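Dixon's test of the gap over the range was applied to 218 genes described by name and measured in the 4 BMDM-T libraries. Cebpe, haptoglobin and apolipoprotein E were not among the genes tested in this way. In 12 of the 218 genes 1 library stood apart from the other 3, a number near the 1 in 20 that chance gives. In the genes given first, that library was the highest. Csf2rb was 306 CPM in replicate 1 and 199.7 to 209 CPM in the others, and Pygl was 947 CPM in replicate 1 and 577 to 613 CPM in the others. Spi1 was 952 CPM in replicate 1 and 597 to 646 CPM in the others, and Tmem37 was 5.38 CPM in replicate 1 and 2.31 to 2.71 CPM in the others. Clec4n was 42.9 CPM in replicate 2 and 20.7 to 21.5 CPM in the others, and Il18rap was 132 CPM in replicate 2 and 65.8 to 71.6 CPM in the others. Itgb3 was 39.5 CPM in replicate 2 and 31.2 to 31.6 CPM in the others, and Socs2 was 22.7 CPM in replicate 2 and 8.61 to 10.4 CPM in the others. Hk2 was 45 CPM in replicate 3 and 31.1 to 33.4 CPM in the others.

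The library was the lowest in the remaining cases. Pgd was 1329.6 CPM in replicate 2 and 1854 to 1892 CPM in the others, and Lyn was 105 CPM in replicate 3 and 136 to 139 CPM in the others. Ifngr1 was 120.0 CPM in replicate 4 and 152 to 156 CPM in the others. TAM, with 3 libraries, was not tested in this way.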

How the results depend on the processing

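The number of genes called ranged from 3917 (libraries thinned to at most 931278 counts) to 5176 (no filter), and by the 2-fold test from 1377 (DESeq2) to 2315 (no filter), against 4426 and 1899. Leaving out 1 library at a time gave 4107 to 4240 and 1780 to 1875. Total-count scaling gave 2622 higher and 1849 lower genes, and 1054 and 833 by the 2-fold test. With the replicate number as a block, 4387 and 1901 genes were called. Deviations of same-numbered libraries correlated at 0.02, -0.03 and 0.08. Different cell populations of the same mouse need not deviate together, so these values cannot decide whether the numbers pair the samples. The labels do not say. Of the named genes other than Cebpe, haptoglobin and apolipoprotein E, 224 were called. All but Pfkfb3 were called under every alternative in which they were tested (Hpgds was not tested in 1 of them and Hpgd not in 3). Another 5 (Csf2rb, Cxcr4, Itgam, Lyn and Tnf) were called only under an alternative, and none changed direction while called. Itgam was called lower under 5 alternatives, with log2 fold changes of -0.41 to -0.36. With the bases before the start site alone, CACGTG was in 10.7% of the promoters of all genes tested and 9.52% of those of lower genes, TGACTCA in 4.03% and TGCTGAC in 3.52% of all, and GAGGAAGT in 3.35% of all and 4.91% of those of higher genes, because the window is shorter. Depth limits genes at or under 3 counts, whose ratios have wide intervals.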

Other observations

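Families grouped by gene symbol, with results known, add to the lists above. Of 78 tested cytosolic ribosomal protein genes, 41 were higher in TAM and 8 lower by adjusted p with edgeR's quasi-likelihood test, but 2 and 1 by the 2-fold test, with a median log2 fold change of 0.54. Mitochondrial ribosomal proteins (62 tested) had 21 higher and 5 lower, and 0 and 1 by the 2-fold test. Dual-specificity phosphatases, which switch off MAP kinases, had 7 of 11 higher and 0 lower by adjusted p, and 3 and 0 by the 2-fold test. The upstream MAP kinase kinase kinases had 0 of 9 higher and 5 lower by adjusted p, and 0 and 4 by the 2-fold test, with a median of -1.11. Solute carriers (112 tested) had 24 higher and 16 lower by the 2-fold test. Over all genes tested, 30.1% were higher and 28.7% lower by adjusted p, and 12.3% and 12.9% by the 2-fold test.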
